A study of Mus musculus with 10 samples.

Results

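The 9 loci described here belong to immediate early genes, which cells switch on within minutes of a stimulus without first making new protein. They are Egr1, Egr2 and Egr3, which encode zinc-finger transcription factors, Nr4a1, Nr4a2 and Nr4a3, which encode orphan nuclear receptors, and Ier2, Ier3 and Ier5, named for their immediate early response. The genes were chosen by family name. A peak belonged to a member when its summit lay in the gene body or within 10 kb on either side, which gave 495 of 614863 deposited peaks, in 72 of 201290 merged regions. These are 9 of 21631 protein-coding loci, and all 9 passed the filter on low counts that 9150 loci passed.

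The assay was ATAC-seq, which marks open chromatin by where a transposase can insert sequencing adapters, in 10 libraries of C57BL/6J mouse bone marrow stroma with 2700 to 5000 sorted cells each. rMSC, labelled revitalized MSCs (n = 3), were cultures transduced with the genes Klf7, Ostf1, Xbp1, Irf3 and Irf7. Control stroma (n = 3) received a control vector. Per the labels' protocols, both cultures were seeded from CD45(-) Ter119(-) CD31(-) Scf-GFP(+) marrow stroma and grown with 20% serum and FGF-basic. Scf-GFP(+) cells (n = 2), here called Scf-GFP-positive, and Scf-GFP(-) cells (n = 2), here called Scf-GFP-negative, were sorted fresh by the same surface markers and carried no transduced gene. Scf-GFP reports the gene for stem cell factor, Kitl, a signal that blood stem cells need. The age of the animals is not given in the labels used here. Whether replicates are separate animals or cultures is not stated either, and p-values then reflect just the scatter among these libraries, which may be technical.

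Immediate early genes are poised: their promoters are kept accessible in resting cells, and serum, growth factors, cyclic AMP, calcium and stress act on factors already bound there. Kinase signalling through serum response factor and its Elk partners acts on CArG boxes, and cyclic AMP and calcium act through CREB on cyclic AMP response elements. Serum and fibroblast growth factors are textbook inducers of these genes.

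The promoters carry such sites in different combinations. The 250 bases before an annotated start site are shown for 6 promoters to let these combinations be compared, 5′ to 3′ on the strand of the gene, from RefSeq in mm10. Capitals mark the core of the cyclic AMP response element, TGACG on one strand or CGTCA when it lies on the other, the CArG box, and the TATA motif TATAAA read on the other strand in Nr4a2. The Nr4a1, Nr4a2 and Nr4a3 promoters lie at chr15:101266596-101266845 on the plus strand, chr2:57124004-57124253 on the minus strand and chr4:48045055-48045304 on the plus strand. Those of Egr2, Ier3 and Ier5 lie at chr10:67537619-67537868 and chr17:35821463-35821712 on the plus strand, and chr1:155099637-155099886 on the minus strand.
Nr4a1: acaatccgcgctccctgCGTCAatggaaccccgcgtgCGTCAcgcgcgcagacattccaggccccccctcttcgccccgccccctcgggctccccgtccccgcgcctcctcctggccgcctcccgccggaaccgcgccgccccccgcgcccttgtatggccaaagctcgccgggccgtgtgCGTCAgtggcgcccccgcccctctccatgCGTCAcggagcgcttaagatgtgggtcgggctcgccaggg
Nr4a2: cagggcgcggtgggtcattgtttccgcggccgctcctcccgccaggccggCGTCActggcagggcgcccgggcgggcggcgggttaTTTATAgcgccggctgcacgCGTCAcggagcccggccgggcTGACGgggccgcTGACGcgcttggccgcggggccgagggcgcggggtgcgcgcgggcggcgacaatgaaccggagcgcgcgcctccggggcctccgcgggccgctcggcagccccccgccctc
Nr4a3: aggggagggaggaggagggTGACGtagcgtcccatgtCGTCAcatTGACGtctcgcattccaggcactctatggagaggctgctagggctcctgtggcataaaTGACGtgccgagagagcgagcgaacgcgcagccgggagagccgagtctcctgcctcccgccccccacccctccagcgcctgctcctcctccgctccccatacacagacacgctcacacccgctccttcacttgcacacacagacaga
Egr2: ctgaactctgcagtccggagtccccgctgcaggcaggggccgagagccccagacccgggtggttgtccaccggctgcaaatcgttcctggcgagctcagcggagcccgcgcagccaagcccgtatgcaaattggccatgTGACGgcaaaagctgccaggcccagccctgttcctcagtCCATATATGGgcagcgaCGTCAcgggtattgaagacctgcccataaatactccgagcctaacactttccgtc
Ier3: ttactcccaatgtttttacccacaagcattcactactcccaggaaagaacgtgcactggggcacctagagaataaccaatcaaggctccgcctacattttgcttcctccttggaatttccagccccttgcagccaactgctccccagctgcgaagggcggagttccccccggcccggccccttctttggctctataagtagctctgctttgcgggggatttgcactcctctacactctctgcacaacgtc
Ier5: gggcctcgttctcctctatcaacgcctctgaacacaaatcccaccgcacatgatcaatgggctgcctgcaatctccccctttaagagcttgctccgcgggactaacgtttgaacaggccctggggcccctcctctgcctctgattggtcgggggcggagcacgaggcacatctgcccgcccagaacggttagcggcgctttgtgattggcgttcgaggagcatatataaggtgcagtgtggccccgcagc

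All 3 Nr4a promoters held 4 TGACG cores of the cyclic AMP response element, counted on both strands. Of 32851 promoters in the table, 20.8% held at least 1 and 0.231% held 4 or more, over windows of 250 bases before to 50 after the start. The Egr2 promoter shown held 1 CArG box with 1 such core on either side, 2 in all, a pair of motifs present together in 0.244% of promoters. This promoter is 1 of 5 annotated for Egr2. Those with starts at 67537566 and 67535499 held no such core, and the latter held no CArG box either. The CArG box, which is its own reverse complement in form, was found in 1.63% of promoters and the TATA motif in 13.6%. The same search for the full element TGACGTCA (1.79% of promoters), the AP-1 site TGANTCA (7.81%), the NR4A site AAAGGTCA (1.51%), the EGR site GCGTGGGCG (0.612%) and the heat shock element GAANNTTC (7.86%) found none in the 6 promoters shown. The Ier3 and Ier5 promoters held no exact match to the motifs searched. Variants of the TATA motif, such as tataag, which both promoters contain, were not searched. Motifs can share bases, as TGACG does with TGACGTCA. These matches describe the letters of the windows and not binding.

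Peaks over the start sites of these 6 promoters were present in nearly every library. A peak covered the shown start of Egr2, Nr4a2, Nr4a3, Ier3 and Ier5 in all 10 libraries. The shown start of Nr4a1 was covered in 9 of 10, the exception being Scf-GFP-negative replicate 2. Egr2 has 5 annotated starts, and the 4 at positions 67537566 to 67537930 were covered in all 10 libraries. The start farthest upstream lies at position 67535499 and is here called the upstream start. A peak covered it in 1 rMSC library, no control library, both Scf-GFP-positive libraries and no Scf-GFP-negative library.

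Across the 9 loci, regions open in every library were common. Of the 72 regions, 14 had a peak in all 10 libraries, or 19.4%, against 5.24% of all regions. Here and below, all regions include those far from any gene, whereas member regions lie in or near a gene. A further 28 regions had a peak in 1 library alone, or 38.9%, against 51.5% of all regions. Sequencing depth is unknown from peak lists, so a site absent from a list may be open and undetected. The deposited lists held 66282 to 78489 peaks in rMSC, 48417 to 75376 in control stroma, 47679 and 68298 in Scf-GFP-positive and 46947 and 39936 in Scf-GFP-negative cells. Counts below therefore come from lists of equal size, made by keeping in every library its 39912 peaks of highest −log10 p. The weakest peak kept had a −log10 q of 4.67 to 5.80 in rMSC, 4.62 to 5.13 in control stroma, 4.27 and 4.29 in Scf-GFP-positive and 2.65 and 2.10 in Scf-GFP-negative cells, so equal size does not equalise strength. Marker loci gave a check of the labels. Summits over 12 stromal loci numbered 51 to 56 in rMSC, 65 to 72 in control stroma, 90 and 75 in Scf-GFP-positive and 16 and 16 in Scf-GFP-negative cells. Over 14 blood loci they numbered 24 to 28 in rMSC, 23 to 27 in control stroma, 43 and 47 in Scf-GFP-positive and 68 and 79 in Scf-GFP-negative cells. Over 10 endothelial loci they numbered 13 to 15 in rMSC, 11 to 15 in control stroma, 8 and 10 in Scf-GFP-positive and 11 and 22 in Scf-GFP-negative cells. Kitl itself had 3 to 5 summits in rMSC, 6 in each control library, 8 and 2 in Scf-GFP-positive and 1 and 0 in Scf-GFP-negative libraries. Ptprc encodes the CD45 protein that the sort selected against. It had 2 summits in each rMSC and each control library, 0 in both Scf-GFP-positive and 6 and 5 in the Scf-GFP-negative libraries. Other blood loci differed from Ptprc. Ikzf1 had 0 in each cultured library, 4 and 3 in Scf-GFP-positive and 12 and 19 in Scf-GFP-negative libraries. Spi1 had 3 and 5 in Scf-GFP-positive and 4 and 3 in Scf-GFP-negative libraries, and 1 to 3 in the cultured ones.

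Summits over all 9 members numbered 39, 37 and 42 in rMSC, 44, 37 and 40 in control stroma, 45 and 44 in Scf-GFP-positive cells, and 34 and 33 in Scf-GFP-negative cells. The Scf-GFP-negative libraries were the lowest, and the other libraries ranged from 37 to 45. In all deposited peaks the sums were 54, 49 and 53 in rMSC, 51, 53 and 58 in control stroma, 49 and 60 in Scf-GFP-positive and 35 and 33 in Scf-GFP-negative cells. In every library each of the 9 loci kept at least 1 summit.

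**Figure D1:**
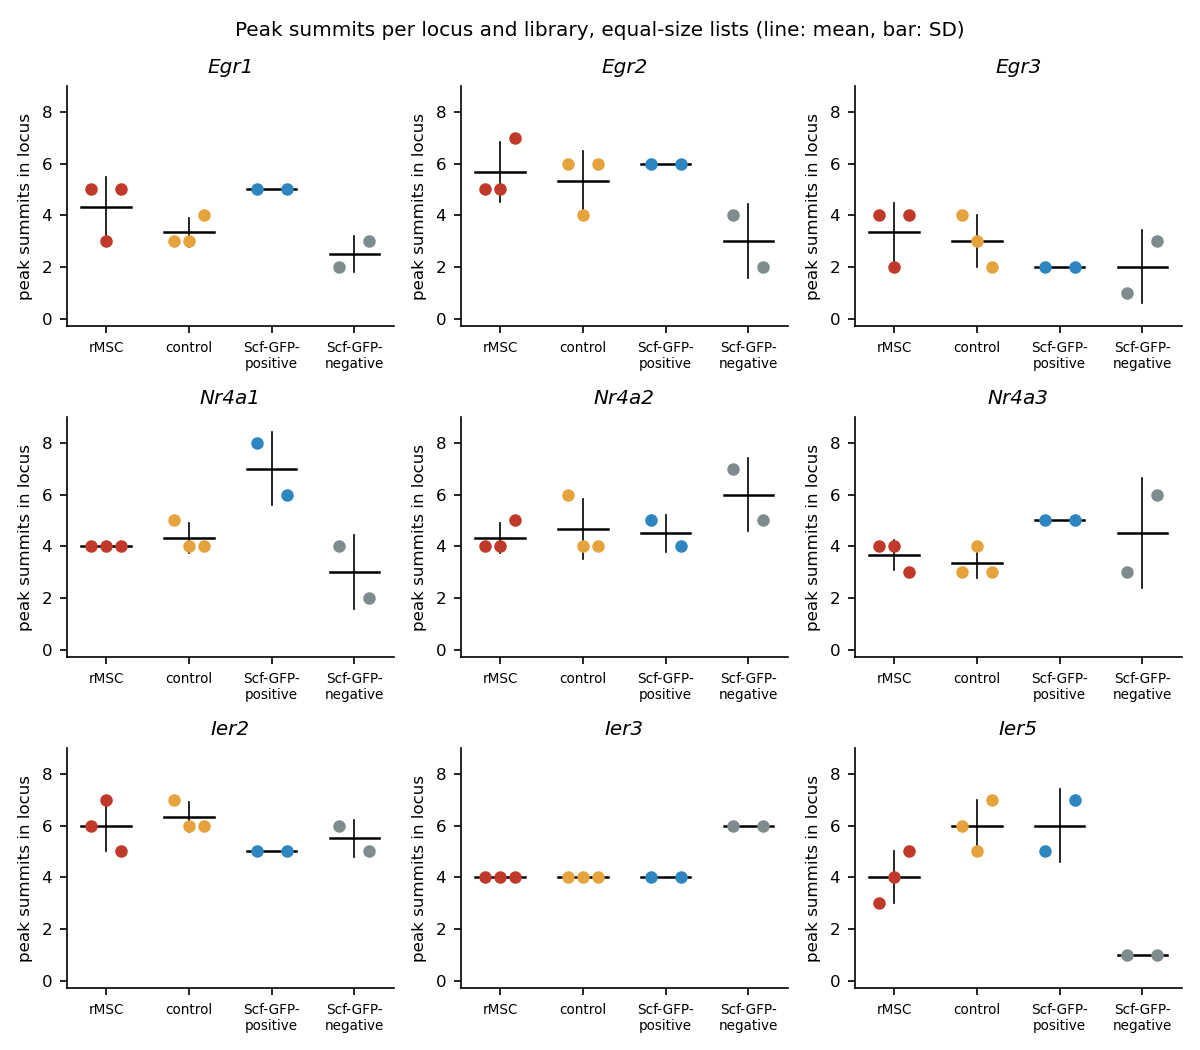
Peak summits in each locus (gene body with 10 kb on either side) in the equal-size lists, 1 panel per gene and 1 point per library. Lines are group means and bars SD (n = 3, 3, 2 and 2). Ier5 had 1 summit in each Scf-GFP-negative library and 3 or more elsewhere, and Ier3 had 6 there and 4 elsewhere.

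The first question is how Scf-GFP-positive stroma differed from its Scf-GFP-negative counterpart. Ier5 and Nr4a1 carried more summits in Scf-GFP-positive cells, Egr1 did so close to the threshold, and Ier3 carried fewer, although its peaks covered more bases. Of the 9 members 3 were higher and 1 was lower by limma at an adjusted p under 0.05 over all 9150 loci, where 30.3% of all loci passed, 13.5% as higher and 16.7% as lower. The median log2 change was 0.21 over the members and -0.22 over all loci tested. Log2 changes are of summits plus 0.5, which understates the change of loci with few summits. In bulk libraries, fewer cells of a type and less access per cell cannot be told apart.

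**Figure D2:**
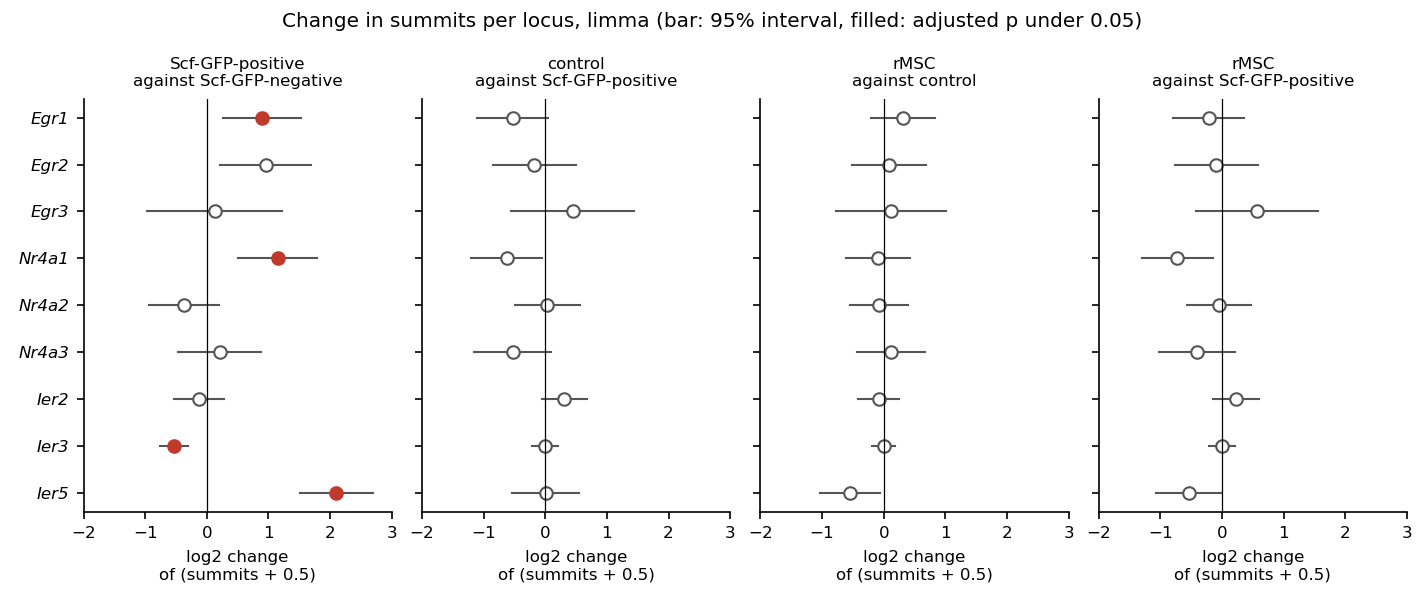
Log2 change of (summits + 0.5) for each member in the 4 comparisons, with its 95% interval from limma over all 10 libraries. Filled points passed an adjusted p under 0.05: Ier5, Nr4a1, Egr1 and Ier3 in Scf-GFP-positive against Scf-GFP-negative cells, and no member in the other comparisons. Ier3 turned round when bases under peaks were measured.

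Ier5, whose product acts in the heat shock and stress response, lies at chr1:155096367-155099636 on the minus strand. It had 5 and 7 summits in Scf-GFP-positive libraries, against 1 and 1 in Scf-GFP-negative libraries, with 3, 4 and 5 in rMSC and 6, 5 and 7 in control stroma. The Scf-GFP-negative libraries lay below all others. Between the sorted populations, 18.7% of all loci had Scf-GFP-positive libraries above Scf-GFP-negative ones without overlap. The log2 change was 2.10 ± 0.25 (SE; limma adjusted p = 0.00118). It was lost only with covered bases as the measure (adjusted p = 0.0998) and with flow cell AC99CPACXX alone (adjusted p = 0.0546), among 26 alternatives.

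The missing Ier5 summits were those around the gene, and the promoter had a strong peak in every library. The start-site peak ranked in the top 1.77% to 9.74% of every equal-size list, with 8.66% and 6.75% in Scf-GFP-positive and 4.38% and 6.80% in Scf-GFP-negative libraries. Downstream of the gene lie regions chr1:155091403-155092411 and chr1:155093248-155094442, and upstream lies chr1:155107749-155108970. Each of these 3 had a deposited peak in all 8 other libraries and in neither Scf-GFP-negative library. Over all members 5 of 72 regions were of this kind, or 6.94%, against 2.15% of all regions. Absence from both Scf-GFP-negative lists was common, at 62.5% of member regions and 71.3% of all regions. The promoter region itself was divided differently. Across the promoter region the Scf-GFP-negative lists held 1 peak of 2714 and 2800 bp, where the Scf-GFP-positive lists held 2 peaks covering 2390 and 2467 bp. Bases under peaks in the whole locus were 3491 and 4566 in Scf-GFP-positive libraries and 2714 and 2800 in Scf-GFP-negative libraries (log2 change 0.52 ± 0.22, SE).

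Nr4a1, the receptor also called Nur77 that is induced by antigen receptor and growth factor signals, lies at chr15:101253902-101274795 on the plus strand. Its locus had 8 and 6 summits in Scf-GFP-positive libraries, against 4 and 2 in Scf-GFP-negative libraries, and 4, 4 and 4 in rMSC and 5, 4 and 4 in control stroma. The Scf-GFP-positive libraries were above all others. Against Scf-GFP-negative cells, groups did not overlap in this direction at 18.7% of all loci. The log2 change against Scf-GFP-negative cells was 1.15 ± 0.27 (SE; limma adjusted p = 0.0182). Without Scf-GFP-positive replicate 1 the adjusted p was 0.0949, and with the 2 groups fitted alone it was 0.214.

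Several sites made up the Nr4a1 difference. At the lower end of the gene body, chr15:101253641-101254583 was open in all 8 other libraries and in neither Scf-GFP-negative library. Upstream, chr15:101247779-101248696 was open in both Scf-GFP-positive libraries alone. Inside the gene, chr15:101260157-101261691 held 2 and 1 peaks of the equal-size lists in Scf-GFP-positive libraries and none in any other library, and 1 weaker deposited peak in control replicate 3. The weakly open chr15:101262596-101262982 and chr15:101275860-101276185 had deposited peaks in the same pair of libraries alone. The strongest peak near the gene ranked in the top 17.1% and 13.4% in Scf-GFP-positive libraries, against the top 50.2% in Scf-GFP-negative replicate 1 and no peak in replicate 2. In Scf-GFP-positive replicate 2 that peak was the one inside the gene, and in the other 8 libraries it was the one at the start site shown.

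**Figure D3:**
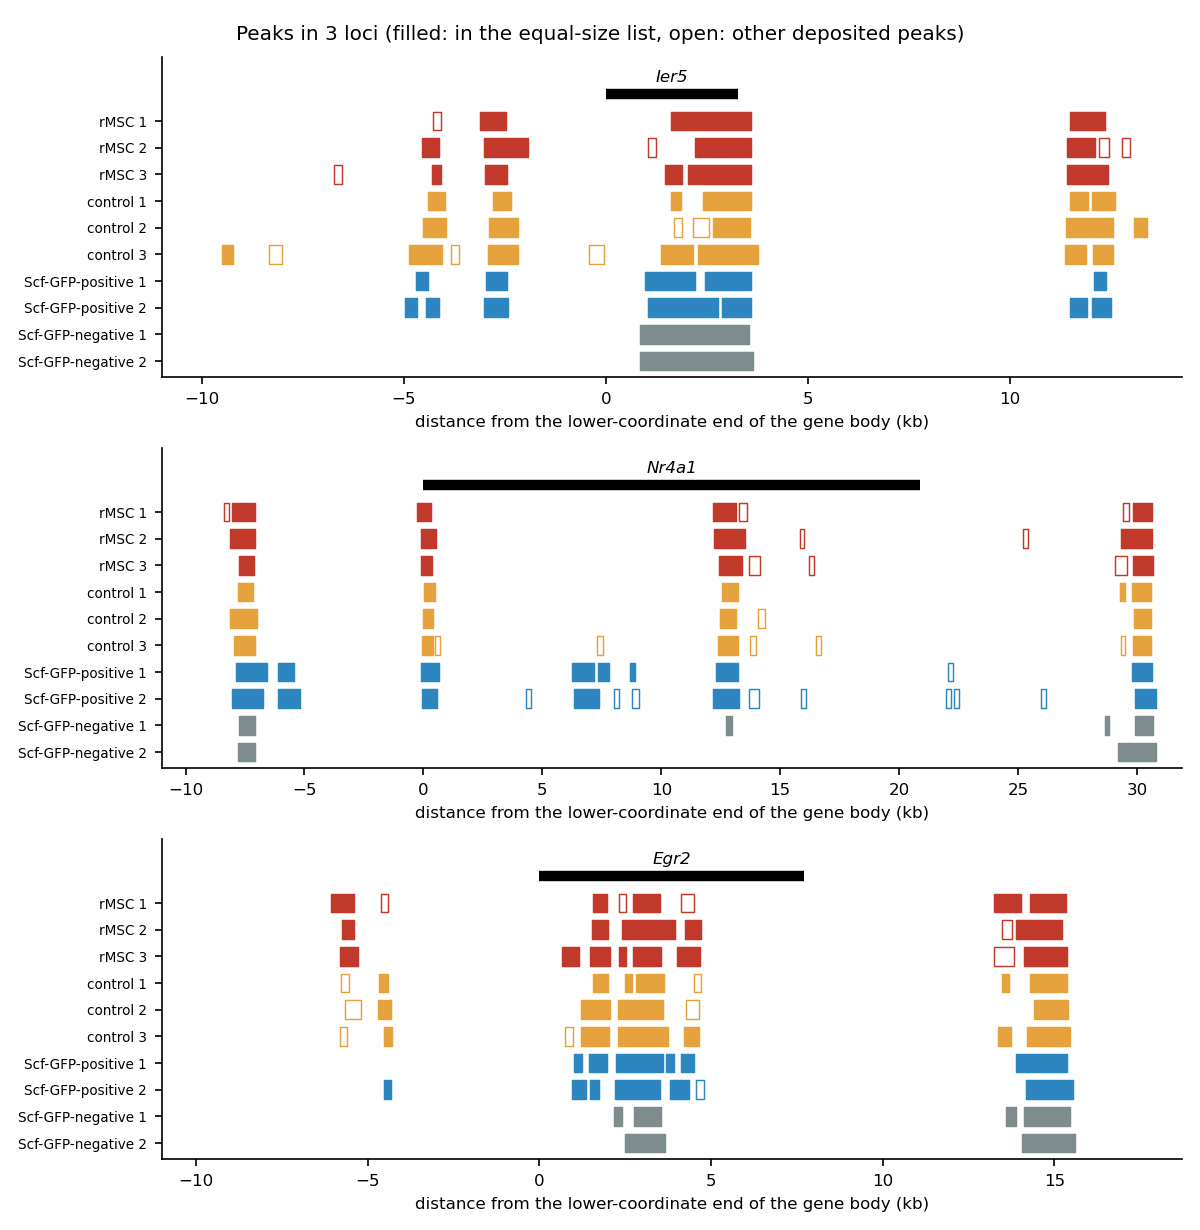
Deposited peaks in the Ier5, Nr4a1 and Egr2 loci by library, as distance in kb from the lower-coordinate end of the gene body (black bar). Filled bars are peaks of the equal-size list and open bars other deposited peaks. The Scf-GFP-negative rows hold 1 wide peak at Ier5 and lack the sites on both sides of it, and at Nr4a1 the Scf-GFP-positive rows alone hold filled bars between 5 and 10 kb inside the gene.

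Ier3, which encodes a small regulator of survival and stress signalling, lies at chr17:35821713-35822911 on the plus strand. It had 4 and 4 summits in Scf-GFP-positive libraries, against 6 and 6 in Scf-GFP-negative libraries, and 4 in each rMSC and control library. No group varied within itself. The log2 change of -0.53 ± 0.10 (SE; limma adjusted p = 0.00728) therefore rests on the spread shared with other loci. It did not pass in all deposited peaks (-0.24, adjusted p = 0.599) or in those with a −log10 q of at least 5 (0.00). Groups without overlap in this direction were seen at 30% of all loci. The count and the extent of the peaks went opposite ways. Bases under peaks were 4405 and 3699 in Scf-GFP-positive libraries, against 1558 and 2314 in Scf-GFP-negative libraries, a log2 change of 1.05 ± 0.24 (SE; limma adjusted p = 0.00537). At the start site, region chr17:35820798-35822420, peaks covered 1227 and 1438 bp in Scf-GFP-positive libraries and 400 and 502 bp in Scf-GFP-negative libraries. In that region and in chr17:35822509-35824044 beyond the gene, Scf-GFP-negative lists held 1 or 2 peaks, and every other list held 1. The gene Flot1 also lies in this locus, and 5 of its 8 regions had their strongest summit inside another gene.

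Egr1, the factor best known for its rapid response to serum, lies at chr18:34861207-34864956. It had 5 and 5 summits in Scf-GFP-positive libraries, against 2 and 3 in Scf-GFP-negative libraries, with 5, 3 and 5 in rMSC and 3, 3 and 4 in control stroma. The log2 change was 0.89 ± 0.27 (SE; limma adjusted p = 0.0424). The call was lost in 16 of 26 alternatives, with adjusted p up to 0.826, among them a fit without rMSC replicate 1 or 3, any of the control libraries, either Scf-GFP-positive library or Scf-GFP-negative replicate 1. With deposited peaks of −log10 q of at least 5, the counts were 3 and 3 in Scf-GFP-positive and 2 and 3 in Scf-GFP-negative libraries. Over the body of Egr1, region chr18:34859091-34867074 was open in all 10 libraries and covered 3682 and 3213 bases in Scf-GFP-positive libraries and 1874 and 2221 in Scf-GFP-negative libraries. Control libraries had the widest cover there, at 6226 to 7414 bases, beside 4189 to 6012 in rMSC. The share of all regions set apart in this way was not counted. Bases under peaks in the whole Egr1 locus did not pass in control stroma against Scf-GFP-positive cells or in rMSC against control stroma.

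Egr2, which regulates myelination and other differentiation programs, lies at chr10:67534469-67542188 on the plus strand. Its counts were 6 and 6 in Scf-GFP-positive libraries, against 4 and 2 in Scf-GFP-negative libraries, with 5, 5 and 7 in rMSC and 6, 4 and 6 in control stroma. The groups did not overlap, as was the case in the higher direction for 18.7% of all loci. The log2 change of 0.95 ± 0.32 (SE) did not pass (limma adjusted p = 0.0561), and it passed in 7 of 26 alternatives. Region chr10:67535126-67536517, which includes the upstream start, had a peak in all 8 other libraries and in neither Scf-GFP-negative library. In Scf-GFP-positive libraries its peaks covered 782 and 626 bases. The upstream start itself lay under a peak only in 1 rMSC library and both Scf-GFP-positive libraries.

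Egr3 (chr14:70077317-70082613), Nr4a2 (chr2:57106830-57124003), Nr4a3 (chr4:48045078-48086447) and Ier2 (chr8:84661331-84662852) did not pass by summits in this comparison. Egr3, which restrains T cell activation, had 2 and 2 summits in Scf-GFP-positive and 1 and 3 in Scf-GFP-negative libraries. Its peaks covered 2285 and 3154 bases in Scf-GFP-positive libraries, against 200 and 799 in Scf-GFP-negative libraries, a log2 change of 2.42 ± 0.46 (SE; limma adjusted p = 0.00165). Nr4a2, a receptor needed by dopamine neurons, had 5 and 4 summits in Scf-GFP-positive and 7 and 5 in Scf-GFP-negative libraries (log2 change -0.37, 95% interval -0.94 to 0.21). Nr4a3, a relative of both other NR4A receptors, had 5 and 5 in Scf-GFP-positive and 3 and 6 in Scf-GFP-negative libraries (0.21, interval -0.48 to 0.89). Ier2 had 5 and 5 in Scf-GFP-positive and 6 and 5 in Scf-GFP-negative libraries (-0.12, interval -0.53 to 0.29).

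By bases under peaks, 5 of the 9 members were higher in Scf-GFP-positive than in Scf-GFP-negative cells and 0 were lower, where 31% of all loci passed, 20.4% as higher and 10.6% as lower. They were Nr4a1 (log2 change 1.49 ± 0.21, SE; limma adjusted p = 0.00016), Egr3, Ier3, and, near the threshold, Egr1 (0.56 ± 0.19; adjusted p = 0.0405) and Egr2 (0.60 ± 0.21; adjusted p = 0.0436). The peaks of Scf-GFP-negative libraries were narrower in general, with a median width of 321 and 410 bp, against 467 and 510 bp in Scf-GFP-positive libraries. The median change in covered bases over all loci was -0.01. The marker sums given above, the width of peaks and the strength of the weakest peak kept moved with this comparison. Their part in these results was not tested.

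**Figure D4:**
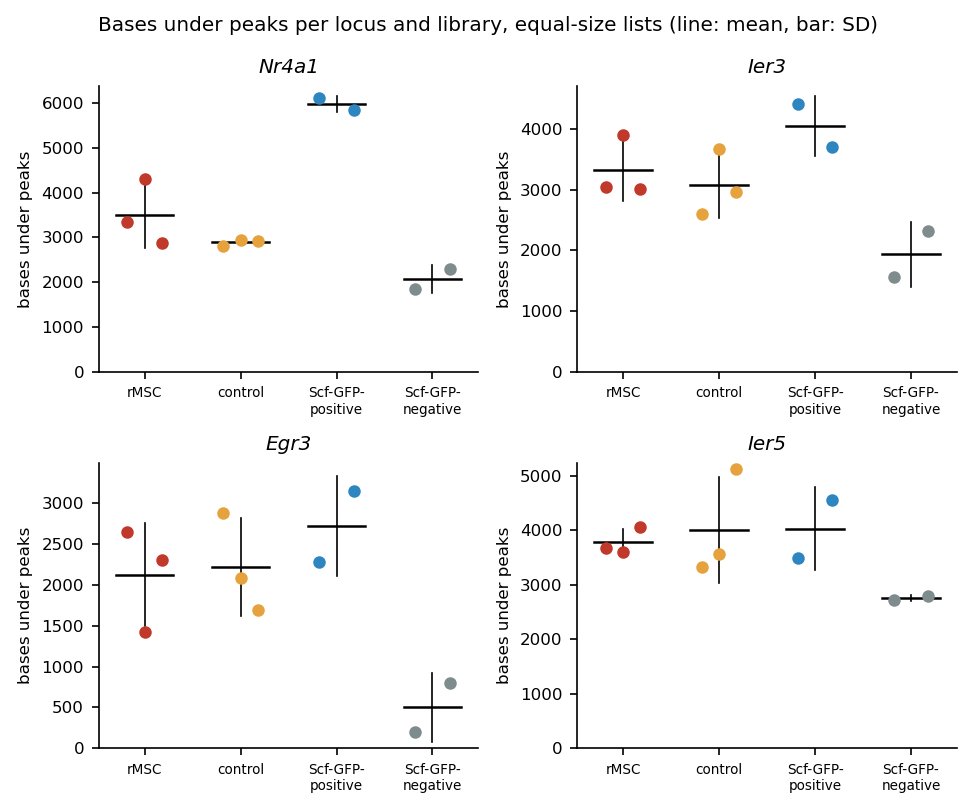
Bases under the peaks of the equal-size lists in 4 loci, 1 point per library, with group means (lines) and SD (bars; n = 3, 3, 2 and 2). In all 4 loci both Scf-GFP-positive libraries lay above both Scf-GFP-negative libraries, though Ier5 did not pass. At Nr4a1 the Scf-GFP-positive libraries lay above all others, at 6105 and 5843 bases. The share of all loci set apart in this way by covered bases was not counted.

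The second comparison asks what culture changed, setting control stroma against the Scf-GFP-positive cells it was seeded from. By summits 0 of 9 members passed in limma, where 11.6% of all loci did, 5.78% as higher and 5.83% as lower, and at an unadjusted p under 0.05 only Nr4a1 did (log2 change -0.63 ± 0.25, SE; adjusted p = 0.155). The median change was 0.00 over the members and -0.01 over all loci. Nr4a1 had 5, 4 and 4 summits in control libraries, against 8 and 6 in Scf-GFP-positive libraries, and these groups did not overlap, as in this direction for 17.5% of all loci. Its peaks covered 2816, 2952 and 2931 bases in control libraries, against 6105 and 5843 in Scf-GFP-positive libraries. By this measure 17.8% of all loci passed, 5.03% as higher and 12.8% as lower, and Nr4a1 was the only member among them, with a log2 change of -1.02 ± 0.19 (SE; limma adjusted p = 0.00437) where the median of all loci was -0.24.

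Some member sites were present in every cultured library and in no sorted one. These were 3 of 72 regions, or 4.17%, against 3.17% of all regions. They were chr10:67528406-67529259 before Egr2, chr14:70067374-70068312 at lower coordinates than Egr3 and chr4:48037403-48038776 before Nr4a3. They entered the equal-size lists of 3, 2 and 5 of the 6 cultured libraries, at ranks from the top 46.1% to the top 85.4%, so that 0 of 47 regions were of this kind there, beside 2.90% of all regions. In the opposite direction, the 4 regions open in both Scf-GFP-positive libraries alone (5.56%, against 2.31% of all regions) comprised 3 at Nr4a1 and chr4:48047810-48048329 in Nr4a3. In the equal-size lists 2 of 47 regions were of this kind, or 4.25%, near the 3.80% of all regions. Region chr17:35829590-35830162, inside Flot1 in the Ier3 locus, was open in all libraries except those of Scf-GFP-positive cells.

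The third comparison, rMSC against control stroma, asks what differed between cultures with the 5 transduced genes and those with the control vector. By summits 0 of 9 members passed, where 3.03% of all loci did, 1.69% as higher and 1.33% as lower, and at an unadjusted p under 0.05 only Ier5 did. Ier5 had 3, 4 and 5 summits in rMSC, against 6, 5 and 7 in control libraries (log2 change -0.54 ± 0.21, SE; limma adjusted p = 0.229), with 5 common to both groups. Deposited peaks of −log10 q of at least 5 gave Ier5 3, 4 and 4 summits in rMSC libraries. They gave 6, 6 and 7 in control libraries, and Ier5 passed (-0.72 ± 0.12, SE, limma adjusted p = 0.0322). That was the only 1 of 26 alternatives in which it did. The median change was 0.00 over the members and over all loci. By covered bases 0 members passed too, where 9.97% of all loci did, 6.83% as higher and 3.14% as lower. The 95% intervals of the changes in summits reached from -1.03 at Ier5 to 1.01 at Egr3, so the counts leave room for a change of up to about that size. No region had a deposited peak in all rMSC and no control library or the reverse, against 2.75% and 2.58% of all regions. In the equal-size lists a pair of neighbouring sites before Egr2 did so in opposite ways, 1 of 47 regions each (2.13%, against 3.12% and 3.47% of all regions). Peaks in chr10:67528406-67529259 covered 677, 355 and 512 bases in rMSC and 0 in each control library, where weaker deposited peaks lay. In chr10:67529755-67530186 they covered 0 in each rMSC library and 277, 390 and 248 in control libraries.

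The strength of the peak beside Egr3 differed between rMSC and control stroma. Peaks were ranked within each equal-size list, and the strongest one in the gene body or within 1 kb was followed, a measure chosen after the values were seen. Its summit lay at -402 to -539 bp from the lower-coordinate end of the Egr3 body in every library but Scf-GFP-negative replicate 1, which had no such peak. It ranked in the top 53.4%, 90.0% and 77.9% of the lists in rMSC, against the top 14.6%, 16.3% and 15.9% in control stroma. It ranked in the top 29.1% and 22.3% in Scf-GFP-positive cells, and in the top 77.3% in Scf-GFP-negative replicate 2. The rMSC libraries thus lay apart from both the control and the Scf-GFP-positive libraries. The share of all genes with ranks set apart in this way was not counted. The width of the Egr3 peak was 345, 255 and 318 bp in rMSC, against 505, 549 and 628 bp in control stroma.

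Fitted over 13623 genes, with genes lacking a peak placed just past the end of the list, the log2 rank of the Egr3 peak was higher, which means weaker, by 2.21 ± 0.33 in rMSC than in control stroma (SE; limma adjusted p = 6.2e-05). It was the only member of 9 to pass, where 15.3% of all genes passed, 7.02% as weaker and 8.27% as stronger, and the median change was 0.08. Leaving out any library kept the call, and among flow cell AC99CPACXX alone the change was 2.38 (adjusted p = 0.064). Against Scf-GFP-positive cells the rank in rMSC was weaker by 1.50 ± 0.36 (SE; adjusted p = 0.00411), again alone among the members, where 27.2% of all genes passed, 17.6% as weaker and 9.54% as stronger, with a median of 0.33. That call was lost without Scf-GFP-positive replicate 2 (adjusted p = 0.0567) and with flow cell AC99CPACXX alone (adjusted p = 0.0661). A second Egr3 peak, 2302 to 2775 bp outside the same end, did not follow this order. It ranked in the top 18.6%, 38.8% and 24.1% in rMSC, against the top 23.3%, 29.4% and 16.7% in control stroma, and these overlapped.

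**Figure D5:**
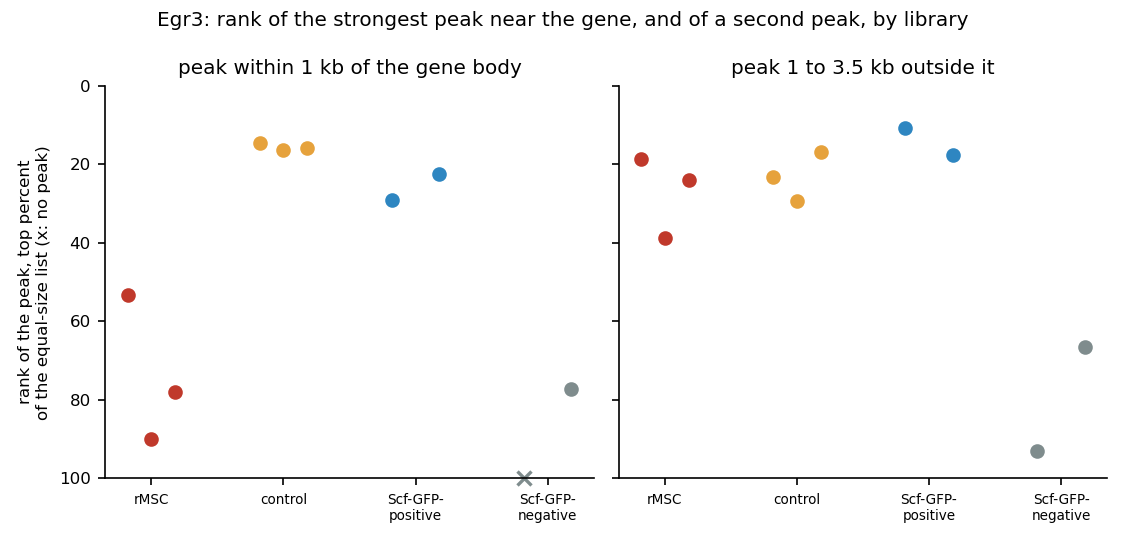
Rank of 2 Egr3 peaks in each library, as the top percent of the 39912 peaks of its equal-size list (0 is the strongest, and the axis points down). The cross marks the library with no peak. The near peak lay below the top 50% in all rMSC libraries and within the top 20% in all control libraries, and the far peak overlapped between them.

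By the same measure Egr3, Nr4a1 and Nr4a2 ranked more strongly in Scf-GFP-positive than in Scf-GFP-negative cells, 3 of 9 members, where 17.7% of all genes passed, 12.9% as stronger and 4.85% as weaker. The log2 rank change was -1.79 ± 0.40 for Egr3 (SE; limma adjusted p = 0.00312), -2.22 ± 0.51 for Nr4a1 (adjusted p = 0.00402) and -1.74 ± 0.57 for Nr4a2 (adjusted p = 0.0343). With flow cell AC99CPACXX alone all 3 calls were lost, at adjusted p of 0.140 for Egr3, 0.138 for Nr4a1 and 0.368 for Nr4a2. The Nr4a1 call was also lost without Scf-GFP-negative replicate 2 (adjusted p = 0.0752). The Nr4a2 call was also lost without Scf-GFP-positive replicate 1, Scf-GFP-negative replicate 1 or Scf-GFP-negative replicate 2, with adjusted p of 0.302, 0.101 and 0.126. Nr4a2 peaks ranked in the top 3.22% and 6.83% in Scf-GFP-positive libraries and the top 14.9% and 16.6% in Scf-GFP-negative libraries. In rMSC replicate 2 and Scf-GFP-negative replicate 2 the strongest Nr4a2 peak lay inside the gene and not at its start. No member passed in control against Scf-GFP-positive cells, where 19.5% of all genes did, 13.1% as weaker and 6.47% as stronger.

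The fourth comparison sets rMSC against Scf-GFP-positive cells, a group it shares with the comparison on culture. By summits 0 of 9 members passed, where 13.2% of all loci did, 7.21% as higher and 6.03% as lower, and at an unadjusted p under 0.05 only Nr4a1 did (log2 change -0.72 ± 0.25, SE; limma adjusted p = 0.0995). Nr4a1 had 4 summits in each rMSC library, against 8 and 6 in Scf-GFP-positive libraries, without overlap as at 17.6% of all loci in this direction. The median change was -0.09 over the members and 0.00 over all loci. Nr4a1 peaks covered 3342, 4313 and 2869 bases in rMSC, against 6105 and 5843 in Scf-GFP-positive libraries, a log2 change of -0.77 ± 0.19 (SE; limma adjusted p = 0.0144), where 20.7% of all loci passed, 8.44% as higher and 12.3% as lower, and the median of all loci was -0.13. The sites inside and upstream of Nr4a1 that marked Scf-GFP-positive cells had no peak in any rMSC library.

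Other genes of the response gave a mixed picture between Scf-GFP-positive and Scf-GFP-negative cells. Of 8 Fos and Jun family loci 2 were higher and 0 lower, with a median log2 change of 0.76 against -0.22 over all loci. The counts in these lists stand beside 13.5% of all loci higher and 16.7% lower, and the shares higher among feedback repressors and lower among upstream factors lay near those. Fos had 11 and 11 summits in Scf-GFP-positive libraries, against 5 and 5 in Scf-GFP-negative libraries (log2 change 1.06 ± 0.16, SE; limma adjusted p = 0.00352). Of 32 tested other immediate early loci 11 were higher and 4 lower, with a median of 0.49. Among them Id2, an inhibitor of helix-loop-helix factors, had 7 and 6 summits in Scf-GFP-positive and 1 and 1 in Scf-GFP-negative libraries. Ccn1, a matricellular protein, had 7 and 7 in Scf-GFP-positive and was without a summit in both Scf-GFP-negative libraries. Ier5l, a relative of Ier5, had 7 and 5 in Scf-GFP-positive and 2 and 1 in Scf-GFP-negative libraries. Of 18 tested feedback repressors 3 were higher and 0 lower (median 0.05). Among them Socs3, a cytokine signalling inhibitor, had 7 and 7 in Scf-GFP-positive and 2 and 2 in Scf-GFP-negative libraries, and Dusp4, a kinase phosphatase, had 4 and 4 in Scf-GFP-positive and 0 and 1 in Scf-GFP-negative libraries. Of 20 tested upstream factors 1 was higher and 3 lower (median -0.35). Crem, a cyclic AMP responsive factor, had 2 and 2 summits in Scf-GFP-positive and 5 and 8 in Scf-GFP-negative libraries. Nfkb1, a subunit of NF-kappaB, had 6 and 4 in Scf-GFP-positive and 13 and 18 in Scf-GFP-negative libraries. Of the 2 tested NR4A partner loci Rxra, the retinoid X receptor, was higher, with 10 and 7 in Scf-GFP-positive and 4 and 4 in Scf-GFP-negative libraries. These named calls held when any 1 library was left out. Under the other alternatives Rxra was lost in 4, Nfkb1 in 3, Crem and Ier5l in 2 each and Dusp4 in 1, all deposited peaks being among those of Rxra and Nfkb1. The calls of Fosb, Pim1, Btg2, Sphk1, Spry2, Elk3 and Mef2a were each lost without at least 1 library.

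In the comparisons with cultures fewer of these loci passed, as was so for all loci (11.6%, 3.03% and 13.2%, beside 30.3% between the sorted cells). In control against Scf-GFP-positive cells 0 Fos and Jun loci were higher and 2 lower, with Fos at 7, 5 and 5 summits in control libraries and 11 and 11 in Scf-GFP-positive libraries. That Fos call passed in 18 of 26 alternatives, and its change was 0.05 by covered bases. It was also lost without either Scf-GFP-positive library, in all deposited peaks and in those with a −log10 q of at least 5. The same held with 5 kb on either side, the 2 groups alone and a replicate block. Gadd45b among other immediate early loci (1 of 32 lower), Socs3 among feedback repressors (1 of 18 lower), and Map2k1 (higher) and Crtc3 (lower) of 20 upstream factors also passed. Gadd45b passed in 21 of 26 alternatives. Its call was lost without either Scf-GFP-positive library, in all deposited peaks, in those with a −log10 q of at least 5 and with 5 kb on either side. Socs3 and Crtc3 each passed in 11 of 26 alternatives and Map2k1 in 11 of 25. In rMSC against control stroma the only locus of these lists that passed was Socs3, with 2, 2 and 2 summits in rMSC and 3, 5 and 4 in control libraries (log2 change -0.82 ± 0.16, SE; limma adjusted p = 0.0435), and leaving out any rMSC library, among others, ended that call (adjusted p up to 0.112). In rMSC against Scf-GFP-positive cells Fosl1 was among the higher loci, and Fos, Btg2, Socs3, Tnfaip3 and Crtc3 were lower. Of these the Fos and Socs3 calls held when any 1 library was left out, and that of Fos was lost in all deposited peaks and in those with a −log10 q of at least 5. Socs3 had 2, 2 and 2 summits in rMSC, against 7 and 7 in Scf-GFP-positive libraries (log2 change -1.58 ± 0.18, SE; limma adjusted p = 0.00258).

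The members did not share 1 pattern of summit counts. Over the 10 libraries, which share groups and list size, Pearson's r of log2(summits + 0.5) was 0.80 between Egr2 and Ier5 and 0.76 between Egr2 and Nr4a1, but -0.93 between Ier3 and Ier5. Among the loci most like the mean of the members, of 8706 compared, were Vasn (r = 0.96), Golga4 (0.96), Kbtbd11 (0.95) and Coro7 (0.95). The locus most like Ier5 was Spink13 (0.97), those most like Nr4a1 were Xrcc4 (0.99) and Pgd (0.98), and those most like Egr2 were Plcd1 (0.97) and Slc4a4 (0.95). For the other members the likest loci had r of 0.85 to 1.0, where 1.0 was reached at Ier3 by Zer1 and B3galt4. Each of these loci was chosen for its likeness.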

How the data were processed

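The submitters' processing notes name BWA, MACS2 and mm10. No version or setting is given in the sources used here. All deposited files are peak lists called by the authors on each library. Each peak carries a deposited score, the authors' fold enrichment (a ratio), and the authors' −log10 p-value and −log10 q-value, used only to rank or filter within a list. Peaks of chromosomes 1 to 19 and X were used. Genes came from RefSeq GRCm38.p6, in 1-based mm10 coordinates.

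Equal-size lists held the 39912 peaks of highest −log10 p, with ties at the end (725 to 9121 peaks a library) in a seeded random order. Summits per locus, as log2(summits + 0.5), were fitted for loci averaging at least 2 summits with limma 3.58.1 (R 4.3.3) with a trend, 4 groups in 1 fit (6 residual degrees of freedom, prior 1.57), and two-sided Benjamini-Hochberg adjusted p over 9150 loci with a threshold of 0.05. Covered bases were fitted as log2(bases + 100). Merged regions joined overlapping peaks of all libraries. The fit was tested on simulated data.

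All 9 members were named in every comparison. Related genes were named by up to 3 passing loci per list and direction, lowest adjusted p first. Loci most like a pattern were the 2 (5 for the mean of the members) of highest Pearson's r, leaving out members, loci within 1 Mb of one and predicted genes. Some loci that these rules name are not reported here. The members, lists and tests were chosen with earlier results of these data known. The stromal, blood, endothelial and housekeeping marker lists served as checks, and the 10 housekeeping loci summed to 28 to 32 summits in rMSC, 31 to 32 in control stroma, 32 and 30 in Scf-GFP-positive and 39 and 43 in Scf-GFP-negative libraries.

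Alternatives covered list choice, window, pseudocount, filter, scaling, covered bases, tie order, flow cell, replicate block and leaving out each library. Replicate 1 of every group was on flow cell AHY33MBCXX and the others on AC99CPACXX.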

Additional observations from a re-analysis of the deposited data

How the results depend on the processing

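Of 936 refits of the members' summit changes, 893 kept their side of the threshold, 22 lost a call, 19 gained one and 2 turned round, and 67 changes that passed in neither fit changed sign. Both that turned round were Ier3 in Scf-GFP-positive against Scf-GFP-negative cells, at 0.0902 with 50 kb on either side and 1.05 with covered bases. Among related genes 3 turned round: Fos in control against Scf-GFP-positive cells (0.0483, covered bases), Sphk1 in Scf-GFP-positive against Scf-GFP-negative cells (0.15, covered bases) and Btg2 in rMSC against Scf-GFP-positive cells (0.10, all deposited peaks). The cause was not tested.

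Counts of loci past the threshold moved more. Between the sorted populations the 2768 loci became 4980 with 50 kb windows and 931 with the 2 groups alone, and 1873 to 2576 without 1 library. For control against Scf-GFP-positive cells the 1062 became 453 with all deposited peaks, 1825 with 50 kb windows, 1799 with no filter and 1633 with covered bases, and 456 to 1319 without 1 library. For rMSC against control stroma the 277 became 35, 474, 779 and 912 in the same order, 144 with flow cell as a covariate, 808 with flow cell AC99CPACXX alone, and 83 to 522 without 1 library. For rMSC against Scf-GFP-positive cells the 1212 became 2430 with 50 kb windows, 2261 with no filter and 1898 with covered bases, and 572 to 1583 without 1 library. With all deposited peaks the split of higher to lower loci also moved, to 1685 and 453 between the sorted populations (1236 and 1532 in equal-size lists), 346 and 107 in control against Scf-GFP-positive cells (529 and 533), 25 and 10 in rMSC against control stroma (155 and 122) and 837 and 187 in rMSC against Scf-GFP-positive cells (660 and 552).

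Deviations of same-numbered libraries correlated by -0.02 to 0.02, and those of differently numbered libraries spanned the same range, so no pairing by replicate number was seen. These values cannot show that pairing was absent, since groups are small and summit counts are low. In comparisons with a sorted group, values for same and different numbers differed only in sign. Whether same-numbered libraries share animals or cultures was not tested. With a replicate block 387, 54 and 623 loci passed in control against Scf-GFP-positive, rMSC against control and rMSC against Scf-GFP-positive cells. In Scf-GFP-positive against Scf-GFP-negative cells the block took the adjusted p of Egr1 to 0.0619 and that of Egr2 to 0.0436. With flow cell AC99CPACXX alone, or without a sorted library, a group keeps 1 library, which is assumed to vary like the other groups. Depth is unknown, so weak sites limit every absence from a list.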

Other observations

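Of the 28 member regions seen in 1 library alone, 9 lay at Nr4a1, 6 at Ier5 and 4 at Nr4a2. At Nr4a1, 4 of the 9 were in Scf-GFP-positive replicate 2, and at Ier5, 4 of the 6 were in control replicate 3. Ier2, whose locus also holds Nacc1, had none, and its 3 regions included 2 open in all 10 libraries. Its counts were 6, 7 and 5 in rMSC, 7, 6 and 6 in control stroma, 5 and 5 in Scf-GFP-positive and 6 and 5 in Scf-GFP-negative libraries.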
